A study of Homo sapiens with 4 samples.

Results

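The tissue kallikreins are a family of secreted serine proteases that are encoded side by side on the long arm of chromosome 19, and 8 of them that are known from epithelia were examined here: *KLK5*, *KLK6*, *KLK7*, *KLK8*, *KLK9*, *KLK10*, *KLK11* and *KLK13*. They were chosen by name, and all 8 were found among the 16811 genes of the expression table. This choice, and that of the gene lists below, was made with earlier results of these data known. The shares called among them are therefore not those of a blind choice. RNA was compared between 2 libraries of wild-type MCF12A cells and 2 libraries of MCF12A cells labelled as a *C1orf132* knock-out (called edited here). MCF12A cells come from human mammary epithelium and are not tumorigenic, although the source field of the labels describes a breast cancer line. In the edited cells the p2 promoter of *C1orf132*, the host gene of miR-29b2 and miR-29c, had been excised with CRISPR/Cas9, and edited cells had been grown from single sorted cells, so they may stand for 1 clone or a few. The labels do not say which colony was sequenced. Both groups share the line and its medium with horse serum, epidermal growth factor, hydrocortisone, cholera toxin and insulin. The edited gene was not analysed here, and the groups were taken from the labels alone.

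Kallikreins are secreted as inactive proenzymes, and a cut at the amino end, often made by another kallikrein or by a membrane protease such as matriptase, switches them on. In the outer layers of the epidermis KLK5, KLK7 and KLK14 cut the junction proteins that hold dead cells together, and inhibitors of the SPINK family hold these enzymes in check. Several members can also cut the protease-activated receptor PAR2. *KLK10* was first described as NES1, a gene expressed in normal mammary epithelial cells, and kallikreins are widely studied as markers of epithelial tumours.

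In RefSeq (GRCh38.p14) the 15 kallikrein genes lie on chromosome 19 between 50819146 and 51084210, a stretch of 265.1 kb. The 8 examined genes take up 122.4 kb of it, from 50943303 to 51065679, and all 8 are read from the minus strand. *KLK5* (ENSG00000167754) runs from 50943303 to 50953038, *KLK6* (ENSG00000167755) from 50958631 to 50969591, and *KLK7* (ENSG00000169035) from 50976468 to 50984064. *KLK8* (ENSG00000129455) runs from 50996008 to 51001604, and *KLK9* (ENSG00000213022) follows at 51002508 to 51009592, with 903 bp between them. *KLK10* (ENSG00000129451) runs from 51012739 to 51020097, *KLK11* (ENSG00000167757) from 51022236 to 51027991 and *KLK13* (ENSG00000167759) from 51055626 to 51065679. *KLK12* and *KLK14* of the same stretch, and *KLK2*, *KLK3*, *KLK4* and *KLK15* between *KLK1* and *KLK5*, have no row in the table and were not analysed here.

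For 7 of the 8 genes the RefSeq promoter table held a window before at least 1 start site, 12 windows in all, some of which overlap because a gene has several starts. Of these, 3 that end where the gene begins are shown, each with the 250 bases before the start, 5′ to 3′ on the minus strand of GRCh38.p14. They stand for *KLK6*, whose RNA did not pass the test, and for *KLK7* and *KLK9*, whose RNA was lower in edited cells. Capitals mark the letters CAGGTG, an E-box, where they occur on either strand. The windows are chr19:50969592-50969841 for *KLK6*, chr19:50984065-50984314 for *KLK7* and chr19:51009593-51009842 for *KLK9*.
KLK6: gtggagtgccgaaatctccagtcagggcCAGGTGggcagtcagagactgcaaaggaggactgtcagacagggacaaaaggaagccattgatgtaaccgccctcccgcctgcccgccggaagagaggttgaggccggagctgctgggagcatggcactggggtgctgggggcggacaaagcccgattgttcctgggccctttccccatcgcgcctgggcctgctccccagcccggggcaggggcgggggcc
KLK7: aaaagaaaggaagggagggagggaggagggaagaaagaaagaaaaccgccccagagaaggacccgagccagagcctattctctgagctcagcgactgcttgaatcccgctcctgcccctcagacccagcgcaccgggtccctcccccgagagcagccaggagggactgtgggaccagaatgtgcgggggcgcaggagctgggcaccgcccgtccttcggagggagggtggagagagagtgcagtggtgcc
KLK9: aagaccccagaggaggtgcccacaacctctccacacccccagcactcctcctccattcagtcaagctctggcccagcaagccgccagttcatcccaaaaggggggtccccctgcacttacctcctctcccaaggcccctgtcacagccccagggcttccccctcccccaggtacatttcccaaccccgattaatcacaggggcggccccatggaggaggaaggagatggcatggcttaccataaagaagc
CAGGTG, read on both strands, was present in 3 of the 12 windows and in 17.5% of the 35116 windows of the whole table. These 3 windows belong to *KLK6*, *KLK7* and *KLK11*; that of *KLK7* starts at another site than the window shown. TGANTCA, the letters of an AP-1 site, was in 0 of the 12 windows and in 6.57% of all windows. TATAAA, the letters of a TATA box, was in 0 of the 12 windows and in 10.7% of all windows. The median GC content of the 12 windows was 64.4%, against 58.0% over all windows, and the median number of CpG dinucleotides was 10.5 against 11.0. Letters in a window are a description and do not show that a factor binds there.

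The authors deposited 1 normalized value per gene and library. It is not a read count. How it was normalized is not given in the sources used here; low values change in steps that depend on transcript length, so it was taken as a signal per length, and comparisons of levels between genes rest on that. The depth was not given. Libraries were scaled to edited replicate 1 by the commonest ratio between low values of the same gene. This ratio was shared by 109 of 1491 genes for edited replicate 2. For wild-type replicates 1 and 2 it was shared by 61 of 1025 and 64 of 831. From low values of genes with a single transcript, 1 read on a transcript of 1 kb was then estimated to be worth between 0.105 and 0.127. By this estimate the depths of the 4 libraries differed little (0.93 to 1.12 relative to edited replicate 1). Read numbers below are estimates on this basis, they allow for counting error alone, since without molecular identifiers several reads may come from 1 molecule. limma was fitted to log2(value + 1) of all 16811 genes, p was adjusted over all of them by Benjamini-Hochberg, and a gene was called at an adjusted p under 0.05. Differences on this log2 scale are edited minus wild-type and understate the change of genes with low values. With 2 libraries a group, the smallest p of an exact two-sided permutation test is 0.333, and each call rests on the variance that limma shares between genes. The labels do not tell how separately the 2 replicates of a group were grown, and p-values measure only the spread between them.

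All 8 kallikreins had both edited values below both wild-type values, and 5 of the 8 passed the test, each lower in edited cells: *KLK7*, *KLK8*, *KLK9*, *KLK10* and *KLK11*. Of all 16811 genes, 3.4% were called lower, 1.33% were called higher, and 30.2% had both edited values below both wild-type values. The median log2 fold change of the 8 was -2.36, against 0.01 for all genes. Summed over the 8 genes, the value was 24.3 and 19.1 in the edited cells (replicates 1 and 2, an order kept throughout) and 217.2 and 243.4 in the wild-type cells. The group means were 21.7 ± 3.69 and 230.3 ± 18.6 (SD, n = 2 each), a ratio of 10.6. Without *KLK8*, which held between 62.0% and 80.6% of the sum in each library, the sums were 7.53 and 3.71 in edited and 58.2 and 92.6 in wild-type cells, a ratio of the means of 13.4. In RNA from a whole culture, fewer cells that express a gene and less RNA per cell cannot be told apart.

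**Figure D1:**
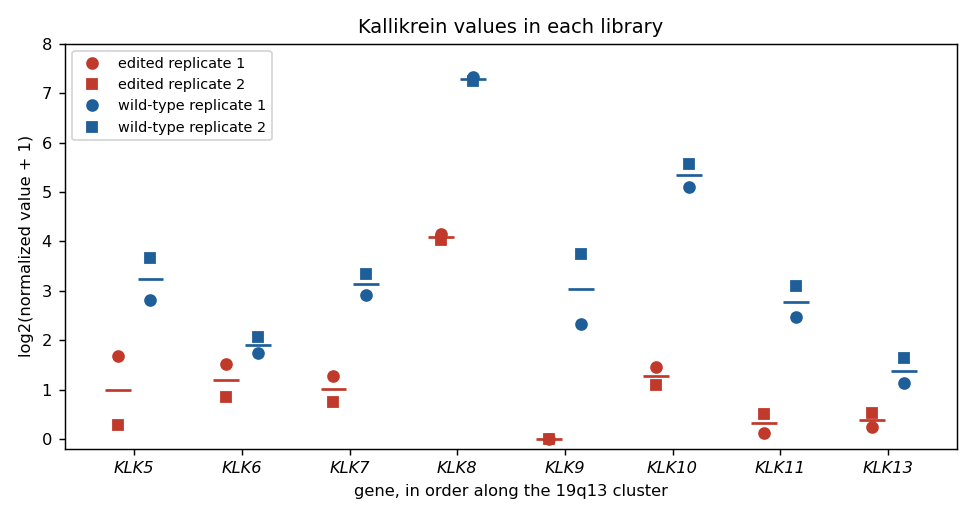
Normalized values of the 8 kallikreins on the scale log2(value + 1), in order along the cluster, with edited libraries in red and wild-type libraries in blue; circles are replicate 1, squares replicate 2 and short lines the mean of each group on this scale (n = 2). Both edited points lie below both wild-type points for all 8 genes, with the widest gap at *KLK10* and the narrowest at *KLK6*.

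*KLK8*, or neuropsin, is a trypsin-like protease of the epidermis and the brain, and it was the most abundant of the 8 genes in each library. Its values were 16.8 and 15.4 in the edited libraries and 159 and 150.8 in the wild-type libraries. The replicates differed by a factor of at most 1.09 and the groups were far apart. The means were 16.1 ± 0.990 in edited and 154.9 ± 5.78 in wild-type cells (SD, n = 2 each), a ratio of 9.65. On the log2 scale this was -3.19 (SE 0.17, limma adjusted p = 0.00607), which placed *KLK8* at rank 13 of all genes by p. An estimated 130 and 133 reads stood behind the edited values and 1147 and 1171 behind the wild-type values. In wild-type cells 91.7% of the genes in the table had a lower mean than *KLK8*, and in edited cells 53.4% did.

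*KLK10* was the second most abundant member in wild-type cells. Its values were 1.76 and 1.14 in the edited libraries and 33.5 and 46.6 in the wild-type libraries. Wild-type replicate 2 was the highest, and each wild-type value was over an order of magnitude above each edited value. The means of 1.45 ± 0.438 and 40.1 ± 9.27 (SD, n = 2 each) gave a ratio of 27.6, and the log2 fold change was -4.06 (SE 0.27, limma adjusted p = 0.00757). This rested on an estimated 45 and 32 reads in edited and 788 and 1180 reads in wild-type cells. Of all genes, 71.5% had a lower mean than *KLK10* in wild-type cells and 13.2% in edited cells. *KLK10* made up 15.4% and 19.1% of the kallikrein sum in the wild-type libraries and 7.25% and 5.99% in the edited libraries.

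*KLK5* and *KLK7* belong to the epidermal shedding cascade, in which trypsin-like KLK5 activates chymotrypsin-like KLK7. *KLK7* was at 1.43 and 0.679 in edited and 6.56 and 9.12 in wild-type cells, means of 1.05 ± 0.531 and 7.84 ± 1.81 (SD, n = 2 each) with a ratio of 7.43, or 11.6 without edited replicate 1. The groups did not overlap, and the log2 fold change of -2.11 passed the test (SE 0.30, limma adjusted p = 0.0348). *KLK5* was at 2.21 and 0.224 in edited and 6.05 and 11.6 in wild-type cells. The edited replicates differed from each other by a factor of 9.87, with an estimated 28 and 3 reads, and the test was not passed (log2 difference -2.25 ± 0.55 SE, limma adjusted p = 0.0754). The ratio of the *KLK5* means was 7.27. Leaving out edited replicate 1 raised it to 39.5 and leaving out edited replicate 2 brought it to 4.00. The log2 fold changes of the enzyme and its activator were thus of similar size, with a larger error for *KLK5*.

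*KLK9* and *KLK11* are less studied members that lie on either side of *KLK10*. *KLK9* was listed at 0 in both edited libraries, whereas wild-type cells had 4.02 and 12.5. The wild-type values differed by a factor of 3.10, and no ratio to the edited cells is given. A count of 0 allows up to 3 reads in a library, and the wild-type values stood for an estimated 44 and 148 reads. The log2 fold change, which for a gene at 0 depends on the pseudocount, was -3.04 (SE 0.50, limma adjusted p = 0.0425). It was -6.17 with a pseudocount of 0.1 and -1.33 with one of 5, where *KLK9* was no longer called (limma adjusted p = 0.0737). *KLK11* was at 0.0894 and 0.427 in edited and 4.51 and 7.53 in wild-type cells. Its means were 0.258 ± 0.239 and 6.02 ± 2.13 (SD, n = 2 each), a ratio of 23.3 that became 14.1 when edited replicate 1 was left out and 67.3 when edited replicate 2 was. The edited values of *KLK11* stood for an estimated 1 and 5 reads, and the log2 fold change was -2.46 (SE 0.33, limma adjusted p = 0.0313).

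*KLK6* and *KLK13*, trypsin-like members, had the lowest wild-type values of the 8 and did not pass the test. *KLK6*, or neurosin, was at 1.87 and 0.805 in edited and 2.33 and 3.155 in wild-type cells, a log2 fold change of -0.71 (SE 0.33, limma adjusted p = 0.220). The higher edited value lay close to the lower wild-type value, and the ratio of the means was 2.05, or 3.41 without edited replicate 1. *KLK13* was at 0.176 and 0.431 in edited and 1.18 and 2.11 in wild-type cells, a log2 fold change of -1.0 (SE 0.31, limma adjusted p = 0.111). An estimated 3 and 7 reads in edited and 17 and 33 reads in wild-type cells stood behind *KLK13*, so its ratio of 5.42 has a wide counting error, and it was 9.35 when edited replicate 2 was left out.

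The order of the levels differed between the groups. In wild-type cells it ran *KLK8*, *KLK10*, *KLK5*, *KLK9*, *KLK7*, *KLK11*, *KLK6*, *KLK13* from high to low by the mean. *KLK8* and *KLK10* did not overlap with any other member, whereas *KLK5*, *KLK9*, *KLK7* and *KLK11*, with means between 6.02 and 8.84, overlapped in their ranges and cannot be ranked. In edited cells *KLK8* was again first and the following places were taken by *KLK10*, *KLK6*, *KLK5* and *KLK7*, whose means of 1.05 to 1.45 lay within the spread of their replicates. *KLK13*, *KLK11* and *KLK9* came last. Among the edited libraries, 3 members were under a value of 1 in replicate 1 and 6 in replicate 2, and none was in either wild-type library. Wild-type replicate 2 exceeded replicate 1 for 7 of the 8 genes, all but *KLK8*. The edited replicates had no common order, as replicate 1 was the higher for *KLK5*, *KLK6*, *KLK7*, *KLK8* and *KLK10*, replicate 2 was the higher for *KLK11* and *KLK13*, and *KLK9* was at 0 in both.

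Along the chromosome, the 5 called genes were neighbours. They filled the 51.5 kb from 50976468 to 51027991 with no other kallikrein between them. The members that did not pass the test, *KLK5* and *KLK6* on one side and *KLK13* on the other, lay at the edges. This block depends on the threshold and not on the size of the change alone. *KLK5*, not called, had a log2 fold change of -2.25, and the called *KLK7* one of -2.11. *KLK6* and *KLK13* had the lowest wild-type means of the 8. With a pseudocount of 5, *KLK9* in the middle of the block was not called. *KLK1*, the renal and pancreatic kallikrein at the far end of the stretch (50819146 to 50823787), was at 0.966 and 1.05 in edited and 6.35 and 9.43 in wild-type cells. Its log2 fold change was -2.12 (SE 0.27, limma adjusted p = 0.0298), so all 9 kallikreins of the table had lower values in edited cells. Among the 79.1% of symbols that could be placed in RefSeq, 0 lay between *KLK1* and *KLK14* apart from kallikreins, with a kallikrein pseudogene left out of the count.

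Genes flanking the stretch were set beside it, and here too only genes that could be placed in RefSeq were counted. Of the 15 genes of the table that lie within 500 kb of its ends, 10 before *KLK1* and 5 after *KLK14*, limma called 0, and 3 had an unadjusted p under 0.05, all of them higher in edited cells. In all, 3.4% of genes were called lower, 1.33% higher, and 4909 of 16811 had an unadjusted p under 0.05. Counts of this size among 15 genes do not set the flank apart from the table. The log2 fold changes of the 15 flanking genes ranged from -0.60 to 1.27 with a median of 0.22. The nearest gene after the stretch, *CTU1*, a tRNA-modifying enzyme gene 13.4 kb away, was at 8.65 and 8.19 in edited and 7.52 and 7.06 in wild-type cells (log2 difference 0.18, limma adjusted p = 0.583). The nearest before it, the small nucleolar RNA gene *SNORD88A* at 19.6 kb, was at 2.23 and 2.98 in edited and 1.20 and 0 in wild-type cells (log2 difference 1.27, limma adjusted p = 0.134). Of the 972 genes of chromosome 19 other than kallikreins, 37 (3.81%) were called lower and 15 higher, with a median of 0.11.

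**Figure D2:**
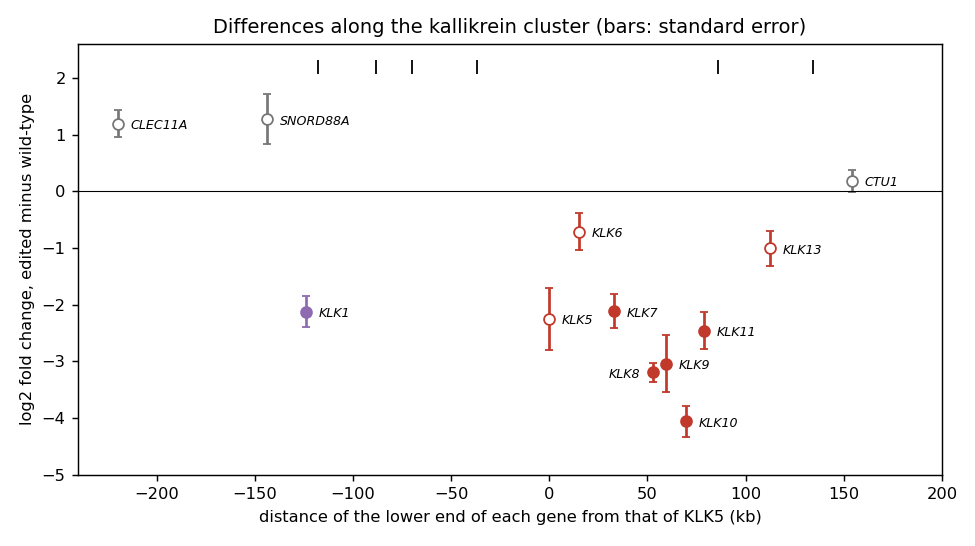
Log2 fold change (edited minus wild-type, log2(value + 1) scale) with its standard error against the distance in kb from *KLK5*, for the 8 kallikreins in red, *KLK1* in purple and the nearest other genes of the table in grey. Filled points passed an adjusted p of 0.05, open points did not, and black ticks at the top mark the 6 kallikreins with no row in the table. The 9 kallikreins lie below 0, from -0.71 at *KLK6* to -4.06 at *KLK10*, while the 3 other genes drawn lie above it. Flanking genes farther away are not drawn, and some of them lie below 0. All 15 flanking genes together range from -0.60 to 1.27.

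Annotated genes overlap within the stretch, and whether the authors counted by strand is not given in the sources used here. In GENCODE version 44 on GRCh37, 6 of the 8 genes (*KLK5* to *KLK10*) overlap a noncoding gene on the opposite strand. *KLK6* overlaps a further unconfirmed transcript on its own strand, and *KLK8* and *KLK9* overlap each other and a read-through gene, although the RefSeq genes given above lie apart. Whether the overlapping genes other than *KLK8* and *KLK9* have rows in the table cannot be told. GENCODE names them by identifiers, the table lists gene symbols, and other symbols of theirs were not searched for. The values of the overlapped members are uncertain in that reads of an overlapping transcript may be counted with them.

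The proteases that switch kallikreins on were lower too where they were called. Of 7 activators listed, 4 were in the table, and 2 of these 4 were called lower and 0 higher (3.4% and 1.33% of all genes). *ST14*, which encodes matriptase, was at 0.721 and 0.322 in edited and 46.8 and 44.7 in wild-type cells (log2 difference -4.95 ± 0.23 SE, limma adjusted p = 0.00450). *PRSS8*, which encodes prostasin, the membrane-anchored partner of matriptase, was at 0.726 and 1.10 in edited and 76.5 and 70.2 in wild-type cells (log2 difference -5.29 ± 0.21 SE, limma adjusted p = 0.00450). Their ratios of means, wild-type over edited, were 87.8 and 80.6. The urokinase gene *PLAU* was at 9.52 and 81.8 in edited and 283 and 334 in wild-type cells, with edited replicates far apart (limma adjusted p = 0.0921). *PLAT*, the tissue plasminogen activator gene, overlapped between the groups, at 103 and 174.6 in edited and 197.5 and 87.9 in wild-type cells (log2 difference 0.03, limma adjusted p = 0.979).

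Inhibitors moved in both directions. Of 17 listed, 12 were in the table, with a median log2 fold change of -1.15 (0.01 over all genes). Of the 12, 2 (16.7%) were called lower, 1 was called higher and 9 did not pass, where 3.4% and 1.33% of all genes were called lower and higher. The lower ones were *SPINT1* and *SPINT2*, the Kunitz inhibitors of matriptase and prostasin. *SPINT1* was at 26.3 and 56.2 in edited and 382 and 222 in wild-type cells (log2 difference -2.89, limma adjusted p = 0.0380), and *SPINT2* at 212 and 222 in edited and 752 and 618 in wild-type cells (log2 difference -1.65, limma adjusted p = 0.0251). *SPINK6*, a Kazal-type inhibitor of epidermal kallikreins, was the one called higher. Its values were 25.4 and 21.8 in edited and 0.739 and 3.77 in wild-type cells (log2 difference 3.09 ± 0.50 SE, limma adjusted p = 0.0412), on an estimated 104 and 100 reads against 3 and 16. With a pseudocount of 0.1 in place of 1, or with any library left out, *SPINK6* was no longer called. *SPINK5*, whose product LEKTI holds KLK5 and KLK7 in check in skin, was at 0.248 and 0.221 in edited and 1.06 and 4.08 in wild-type cells (limma adjusted p = 0.131). The secreted inhibitors *PI3* (13.5 and 407 in edited, 415 and 209 in wild-type cells) and *SLPI* (161 and 805 in edited, 437 and 399 in wild-type cells) differed more between the edited replicates than between the groups.

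Substrates and receptors had a median near 0. Of 14 listed, 9 were in the table, and 1 of the 9 was called lower and 0 higher, with a median of 0.08. The called gene was *CDH1*, which encodes the adhesion protein E-cadherin, at 3.89 and 1.54 in edited and 150.5 and 122.9 in wild-type cells (log2 difference -5.28 ± 0.35 SE, limma adjusted p = 0.00757). The gene of PAR2, *F2RL1*, overlapped between the groups, at 22.1 and 30.9 in edited and 28.5 and 21.3 in wild-type cells (log2 difference 0.08, limma adjusted p = 0.864). The desmosomal cadherin gene *DSG2* was at 16.3 and 29.1 in edited and 54.4 and 68.4 in wild-type cells and did not pass (limma adjusted p = 0.0638). Over the 25 activators, inhibitors, substrates and receptors in the table, 5 were called lower (20%) and 1 higher, where all genes gave 3.4% and 1.33%.

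Many of the 25 listed genes of the cornified envelope and squamous differentiation, the programme in which kallikreins act in skin, were also lower. In the table were 20, of which 9 (45%) were called lower and 0 higher, with a median of -2.12. Those called were *SPRR1A*, *SPRR1B*, *SPRR2D*, *TGM1*, *PPL*, the keratin gene *KRT6B* and the S100 genes *S100A7*, *S100A8* and *S100A9*. Over all genes 3.4% were called lower and 1.33% higher, with a median of 0.01. The transglutaminase gene *TGM1*, which cross-links the envelope, was at 3.24 and 4.09 in edited and 22.7 and 17.3 in wild-type cells (limma adjusted p = 0.0219). *SPRR1B*, an envelope precursor gene, was at 0.553 and 0 in edited and 45.4 and 54.9 in wild-type cells (limma adjusted p = 0.00607). *IVL*, the involucrin gene, was at 0.197 and 0.301 in edited and 2.99 and 10.5 in wild-type cells and did not pass (limma adjusted p = 0.0635). Of the 20, 17 had both edited values below both wild-type values and 3 had both above (5078 and 5285 of all 16811 genes). The 3 were *CNFN*, *KRT10* and *LCE3D*, none of them called. *CNFN* was at 27.4 and 27.65 in edited and 14.49 and 16.15 in wild-type cells (limma adjusted p = 0.0671).

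**Figure D3:**
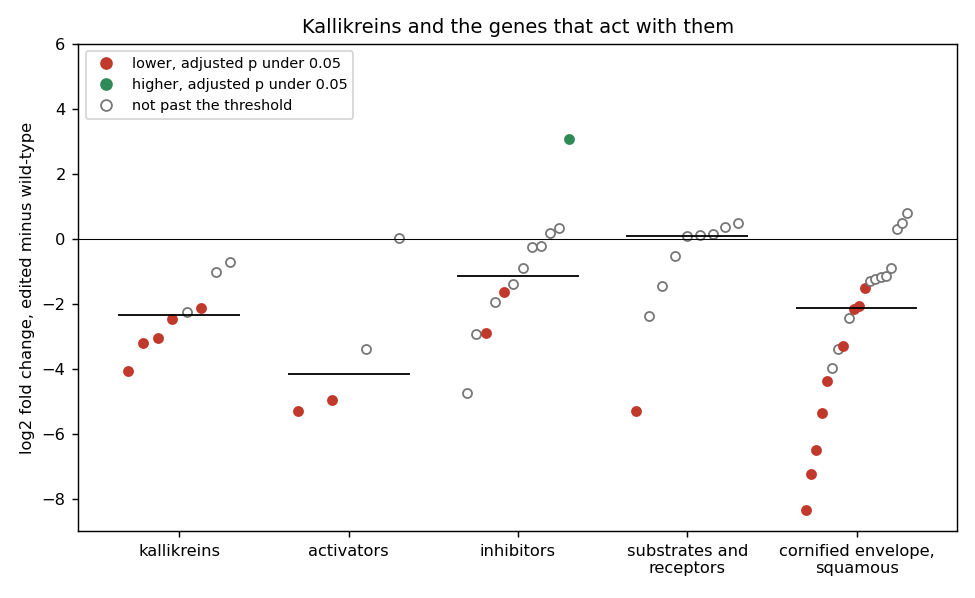
Log2 fold change (edited minus wild-type, log2(value + 1) scale) of each gene in the table from the kallikreins (8), their activators (4), inhibitors (12), substrates and receptors (9) and the cornified envelope and squamous list (20), sorted within each list; horizontal bars are medians. Red points were called lower, green points higher and open grey points did not pass an adjusted p of 0.05; the medians run from -4.17 for the activators to 0.08 for the substrates and receptors.

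The summed basal mammary markers were also lower in edited cells, while the luminal sums overlapped between the groups. The 6 basal mammary markers, all in the table, summed to between 4626 and 7016 in edited and between 12184 and 20750 in wild-type libraries, and 6 of 7 luminal markers, *CDH1* among them, to between 675 and 676 in edited and between 421 and 689 in wild-type libraries. Of 7 fibroblast markers 2 were in the table, and they went opposite ways: *COL1A1*, a collagen gene, was called lower (3.19 and 5.58 in edited, 15.6 and 28.1 in wild-type cells, limma adjusted p = 0.0490), whereas *DCN*, the decorin gene, was at 15.1 and 105 in edited and 7.42 and 1.09 in wild-type cells (limma adjusted p = 0.119). Their sums were 18.3 and 110.6 in edited and 23.0 and 29.2 in wild-type cells, while *COL1A2*, *COL3A1*, *PDGFRB*, *LUM* and *THY1* have no row. The immune markers *CD14* and *CD68* had sums between 41.7 and 58.4 over the 4 libraries, and *PTPRC* and *CD3E* have no row; of 4 endothelial markers none has one. The part of these differences in those of the kallikreins was not tested.

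The calls depend on each library. With either edited library left out, 2 of the 8 kallikreins were called, *KLK8* and *KLK10*. With either wild-type library left out, limma called 0 of the 8 and 0 of all 16811 genes, of which 4169 (without replicate 1) and 2796 (without replicate 2) had an unadjusted p under 0.05, and in these fits the lone library is assumed to vary like the other group. The log2 fold change of each of the 8 genes was below 0 in all 4 of these fits.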

How the data were processed

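Poly(A)-selected RNA from 2 edited and 2 wild-type libraries of MCF12A cells was read from one end over 75 bases. For each of 16811 gene symbols, the authors deposited 1 normalized signal per library, taken here as scaled for transcript length because of the steps between its low values. The submitters' processing notes name Salmon, HISAT2 and the build hg38; the normalization, annotation and use of strand are not given in the sources used here. Groups and replicate numbers came from the labels. All genes, with no filter on low values, were compared with limma 3.58.1 (lmFit and eBayes with trend) in R 4.3.3 on log2(value + 1), with Benjamini-Hochberg adjustment. The fit was tested on simulated data. Read numbers were estimated from the step between low values of 1022 genes with a single transcript and the canonical transcript length in GENCODE version 44. The step was scaled between libraries by the commonest ratio of low values of the same gene. Read numbers are approximate. Gene symbols were matched to RefSeq, 12499 directly and 799 by a synonym (79.1%). The 8 members were named whatever their values; other genes were named only from fixed lists (other kallikreins, activators, inhibitors, substrates and receptors, cornified envelope and squamous differentiation, clade B serpins, steroid and vitamin D receptors, and cell type markers) or as nearest neighbours of the stretch. Members and lists were chosen with earlier results of these data known. No protein sequence was used here. Alternatives were other pseudocounts, filters, scalings, no variance trend, a replicate block, a stricter threshold and leaving out each library. Python 3.11.15, numpy 2.4.6, pandas 2.3.3 and matplotlib 3.10.9 were used. One marker gene is not reported here.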

Additional observations from a re-analysis of the deposited data

How the results depend on the processing

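The number of kallikreins called lower, 5 of 8, was the same when the pseudocount was 0.1, genes under a mean of 1 were left out, totals were made equal, quantile or cyclic loess normalization was applied, or the variance trend was dropped, and it was 4, without *KLK9*, with a pseudocount of 5. It was 2 when only genes with a mean of at least 10 were tested, where *KLK8* and *KLK10* are the only members left. At the study's RNA-seq threshold of 0.001 it was 0. So were the genes called lower (571 at 0.05) and higher (224), the pathway genes called lower (5) and the 1 called higher, although 4909 genes had an unadjusted p under 0.05. These counts of 0 belong to the limma fit of the normalized values. The study reported differing genes at this threshold in both directions from its own analysis, which was not repeated here. When 1 library at a time was left out, the kallikreins called ranged from 0 to 2, genes lower from 0 to 220, genes higher from 0 to 28, pathway genes lower from 0 to 9 and higher from 0 to 0. A pseudocount of 0.1 gave 127 genes higher and 0 pathway genes higher. Replicate numbers did not show pairing (correlation of deviations across 9590 genes -0.138, 2 pairs), and with a replicate block 2 kallikreins, 108 genes lower, 17 higher, 3 pathway genes lower and 0 higher were called. A crossed pairing, added after the data were seen, called 6 kallikreins. Lower calls were 71.8% of all calls, 59.3% with the mean filter of 10, 63.6% after quantile normalization, 86.4% with the block, and 92.3% and 88.7% without edited replicates 1 and 2. No scaling moved the median of all genes by over 0.1. All 105 values of single kallikreins under these alternatives were below 0; 84 kept their side of the threshold, 20 were no longer past it and 1, *KLK5* in the crossed pairing, came past it. No flanking gene was called in any fit by limma. The few reads of *KLK9*, *KLK11* and *KLK13* in edited cells limit their ratios.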

Other observations

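Clade B serpins, intracellular and secreted protease inhibitors of epithelia, are a further family with members that were lower in edited cells. Of 13 listed, 9 were in the table, and 2 of these 9 were called lower and 0 higher (3.4% and 1.33% of all genes). The median log2 fold change was -1.21 (0.01 over all genes). *SERPINB13* was at 0.406 and 0.0966 in edited and 17.9 and 43.3 in wild-type cells (log2 difference -4.54, limma adjusted p = 0.0167). *SERPINB3*, a squamous cell carcinoma antigen, was at 0.146 and 7.48 in edited and 123.1 and 91.5 in wild-type cells (log2 difference -5.10, limma adjusted p = 0.0484), with edited replicates far apart. *SERPINB5*, the maspin gene, overlapped between the groups, at 164.6 and 234.4 in edited and 212.8 and 273.5 in wild-type cells (limma adjusted p = 0.482).

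Steroid hormones are known to regulate kallikrein genes in several tissues. Of 6 steroid and vitamin D receptor genes listed, 3 were in the table and limma called 0 of them, with 1 at an unadjusted p under 0.05. Of all 16811 genes, 4909 had an unadjusted p under 0.05, so counts of this size do not set the 3 apart. The glucocorticoid receptor gene *NR3C1* was at 37.2 and 35.3 in edited and 28.4 and 43.4 in wild-type cells (log2 difference 0.04, limma adjusted p = 0.927). *ESR1*, the estrogen receptor alpha gene, was at 0.490 and 0.193 in edited and 2.04 and 3.96 in wild-type cells (log2 difference -1.54, limma adjusted p = 0.0663). *VDR*, the vitamin D receptor gene, had a log2 difference of 0.02 (limma adjusted p = 0.981).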
